A study of Mus musculus with 8 samples.

Results

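miR-204 and miR-211 are a pair of microRNAs (miRNAs, short RNAs that repress messenger RNAs carrying a match to their seed) that differ by a single base. The rows used were all probes of the array design named mmu-miR-204 or mmu-miR-211, on all 8 arrays. They are 2 of 650 miRNAs and 6 of 1857 probes, with 2 probes for miR-204 and 4 for miR-211, and fill 40 of the 13000 spots of each array that are not controls. The pair was chosen by measured values, the log2 levels of miR-204 and miR-338-3p on these arrays, because the one ran opposite to the other. That relation is therefore described here without a test. The arrays measured primary mouse oligodendrocytes, the myelin-forming cells of the brain, as they aged in culture. All samples shared the strain C57BL/6J, the genotype CNP-Cre and the absence of any treatment. In CNP-Cre mice the promoter of Cnp, a gene of the oligodendrocyte lineage, drives Cre recombinase, and no group without Cre was analysed here. Cells were detached by shaking and grown in serum-poor medium with thyroid hormones. Immature cells comprised 3 arrays of day 0 and 2 of day 1, and mature cells comprised 3 arrays of day 6, in the day numbers of the sample labels. The series text numbers the days of the immature cultures differently. It calls the samples independent, but neither the labels nor that text says whether they came from different animals or how old these were. P-values therefore cover the spread between these arrays and no more.

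miR-204 is made from an intron of Trpm3, which encodes a cation channel, and miR-211 from an intron of Trpm1, a related channel gene of melanocytes and retina. miR-204 is abundant in choroid plexus and in retinal pigment epithelium, and miR-211 is best known from melanocytes, where the transcription factor MITF drives its host gene. In cultured rodent oligodendroglia miR-204 is known to be induced by SOX10, to restrain the division of precursors and to favour their differentiation. miR-338-3p, miR-219 and miR-138 belong to the miRNAs that rise as oligodendrocytes differentiate, and miR-338-3p and miR-219 repress factors that hold precursors in an immature state.

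The mature sequences are shown because a probe must tell both members apart by the 3′ part of the molecule. They are written 5′ to 3′ with the seed (bases 2 to 8) in capitals and come from RefSeq on GRCm38.p6. miR-204-5p lies at chr19:22750610-22750631 on the plus strand, miR-211-5p at chr7:64205831-64205852 on the plus strand, and miR-338-3p, printed for contrast, at chr11:120014781-120014802 on the minus strand.
miR-204-5p: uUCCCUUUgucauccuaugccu
miR-211-5p: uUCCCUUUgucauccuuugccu
miR-338-3p: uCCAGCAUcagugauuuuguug
miR-204-5p and miR-211-5p were identical at 21 of 22 bases. Their only difference was A17U, with the base of miR-204-5p first and positions counted from the 5′ end. The seed UCCCUUU is carried by 3 of 1679 mature mouse names in the RefSeq table. The third, miR-7670-3p, has no probe on this array.

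The precursors are printed whole, with the 5′ arm in capitals, because they come from different genes and differ in length. The Mir204 hairpin of 68 bases lies at chr19:22750605-22750672, inside the annotated span of Trpm3 at chr19:22137797-22995410. The Mir211 hairpin of 106 bases lies at chr7:64205806-64205911, inside the annotated span of Trpm1 at chr7:64153835-64269772.
Mir204: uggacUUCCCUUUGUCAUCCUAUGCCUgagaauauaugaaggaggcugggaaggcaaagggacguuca
Mir211: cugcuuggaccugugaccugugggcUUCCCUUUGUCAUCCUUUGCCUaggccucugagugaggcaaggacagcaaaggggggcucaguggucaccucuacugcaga

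One array stood apart before any comparison. On day 0 replicate 1 only 61 miRNAs were detected, against 150 to 218 on the others, and its negative control spots had a median absolute deviation of 30.2 against 2.54 to 3.88 intensity units. By SD the same spots had 50.3 there, 46.7 and 57.0 on day 6 replicates 1 and 3, and 2.74 to 8.08 on the rest. Its correlation with the other arrays across miRNAs was 0.832 to 0.881, against 0.884 to 0.968 among the rest. The lowest detected value there was 7.65 on the log2 scale, so a miRNA of lower level could not be seen on it. All 8 arrays lay on 1 slide with 1 scan date. They formed 2 rows of the slide, with day 0 replicates 1 and 3, day 1 replicate 1 and day 6 replicate 3 in the first row and the others in the second. Of 7 miRNAs linked to oligodendrocyte differentiation, 6 or 7 were detected on 6 arrays, 3 on day 1 replicate 2 and 2 on day 0 replicate 1.

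miR-204 was measurable in most of these cultures, at levels that spread far more between arrays than between spots. On its brighter probe, A_54_P2396, the background-subtracted intensity was 263 ± 17.8 (SD, 8 spots), 26.7 ± 2.47 (9 spots) and 128 ± 11.3 (10 spots) on day 0 replicates 1 to 3. It was 47.3 ± 4.82 (9 spots) and 61.0 ± 6.68 (10 spots) on the 2 day 1 arrays, and 17.1 ± 3.27 (9 spots), 36.2 ± 3.44 (10 spots) and 12.2 ± 1.98 (10 spots) on day 6. The day 0 group held both the brightest array and one among the dimmest, and all day 6 arrays were dimmer than both of day 1. Every spot of this probe used was flagged as well above background by the scanner software on 6 arrays, and none was on day 6 replicates 1 and 3.

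The second miR-204 probe, A_54_P2397, ordered the 8 arrays exactly as the first did. Its means were 171, 15.6 and 77.1 on day 0, 28.8 and 35.4 on the 2 day 1 arrays, and 10.1, 23.0 and 4.70 on day 6. The correlation of both probes over the 8 arrays was 0.991 on the log2 scale. They disagreed in detection, since 0 of 9 spots of the second probe on day 0 replicate 1 and 1 of 10 on day 0 replicate 2 were well above background, although the brighter probe was detected on both. The software's own summary signal per miRNA gave 288, 29.1 and 142 on day 0, 53.1 and 64.6 on the 2 day 1 arrays, and 18.7, 40.5 and 11.7 on day 6. That summary ranked the arrays in the same order, and its flag called miR-204 detected on all 8 arrays, including the 2 of day 6 where no spot of the brighter probe was well above background.

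**Figure D1:**
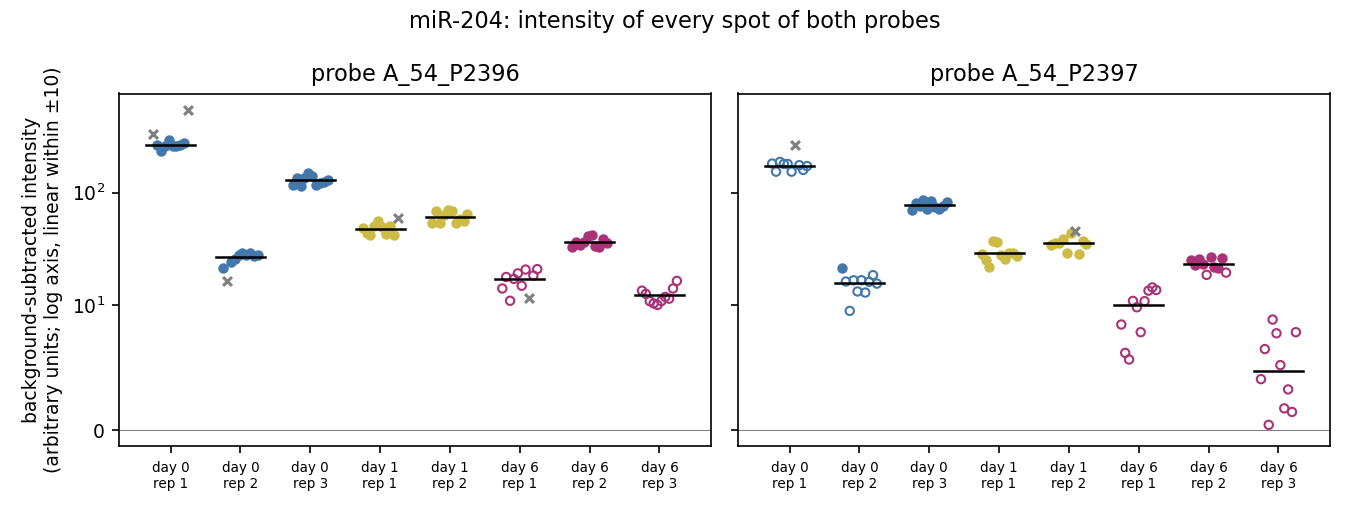
Background-subtracted intensity (vertical axis, arbitrary units, log scale outside ±10) of every miR-204 spot on the 8 arrays, in one panel per probe. Filled circles are spots well above background, open circles are not, grey crosses are outlier spots left out, and bars are means. Spots of an array lie close together, and the arrays run from 263 down to 12.2 on the brighter probe.

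After each array was scaled to a common 75th percentile of the 91 probes seen everywhere, the log2 level of miR-204 was 8.16, 4.39 and 6.49 on day 0, 5.34 and 6.20 on the 2 day 1 arrays, and 4.24, 5.25 and 4.20 on day 6. The last value is the floor of 4.20 to which dimmer signals were raised, and 4.24 was not well above background. Scaling left the order of the arrays as it was.

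By day, miR-204 stood highest on day 0 and lowest on day 6, but its groups were too scattered for a call. The mean log2 level was 6.35 ± 1.89 (SD, n = 3) on day 0, 5.77 ± 0.61 (n = 2) on day 1 and 4.56 ± 0.60 (n = 3) on day 6. Day 0 and day 1 differed by less than the SD of day 0. All 3 day 6 values lay below both day 1 values, with a narrow gap between 5.25 and 5.34, whereas day 0 replicate 2 at 4.39 fell inside the day 6 range.

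The test of mature against immature cells gave a log2 fold of -1.50 ± 0.76 (SE) for miR-204, with a 95% confidence interval from -3.24 to 0.25 and an adjusted p of 0.475 (limma, Benjamini-Hochberg over 199 miRNAs). This was the most negative fold of the 199 miRNAs tested, whose median was 0.04, yet miR-204 ranked only 35th by p. In that comparison 4 of 199 miRNAs (2.01%) were called at an adjusted p under 0.05, all of them higher in mature cells, and miR-204 was not among them. An exact two-sided permutation of the 8 arrays, 3 against 5, gave a difference of -1.55 with p = 0.125, where the smallest possible p was 0.0179. miR-338-3p, to which miR-204 was chosen as running opposite, had a log2 fold of 1.32 ± 1.11 (SE) in this comparison. The folds, ranks and p-values of miR-204 between days are therefore not independent of its choice from the same arrays.

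Against day 0 alone, miR-204 on day 6 had a log2 fold of -1.78 ± 0.84 (SE; 95% interval -3.72 to 0.15; limma adjusted p = 0.378), again the most negative of 199. Against day 1 the log2 fold was -1.21 ± 0.94 (interval -3.37 to 0.95; limma adjusted p = 0.860), and 3 miRNAs had a more negative fold. From day 0 to day 1 it was -0.57 ± 0.94 (interval -2.74 to 1.59; limma adjusted p = 0.975). None of these passed the test, and the intervals of all of them span 0. The shares called were 8 of 199 (4.02%) for day 6 against day 0 and 3 of 199 (1.51%) for day 1 against day 0, again all higher at the later time. For day 6 against day 1 limma called 0 (0%), with 17 at an unadjusted p under 0.05. These comparisons share arrays, so their folds are not separate observations.

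The size of the fold leaned on single arrays and on the background method. It stayed below 0 in all 25 other settings of mature against immature cells, all of which reuse the arrays of the choice. Among these, the submitters' value table and dropping the detection filter could not change it (-1.50). The permutation repeated the difference for days 0 and 1 as a single group (-1.55). The fold was -0.97 without day 0 replicate 1 and -1.99 without day 0 replicate 2. With the normexp background correction, which adds an offset, it was -0.47. Against day 0 the fold was -0.78 without day 0 replicate 1 and -2.76 without day 0 replicate 2 (limma adjusted p = 0.0849, the lowest of its 23 settings). From day 0 to day 1 the fold turned to 0.39 without day 0 replicate 1. Within the first slide row, day 6 minus immature was -2.46 (1 against 3 arrays), and within the second it was -0.55 (2 against 2). In bulk RNA, fewer cells of a type and less RNA per cell cannot be told apart.

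**Figure D2:**
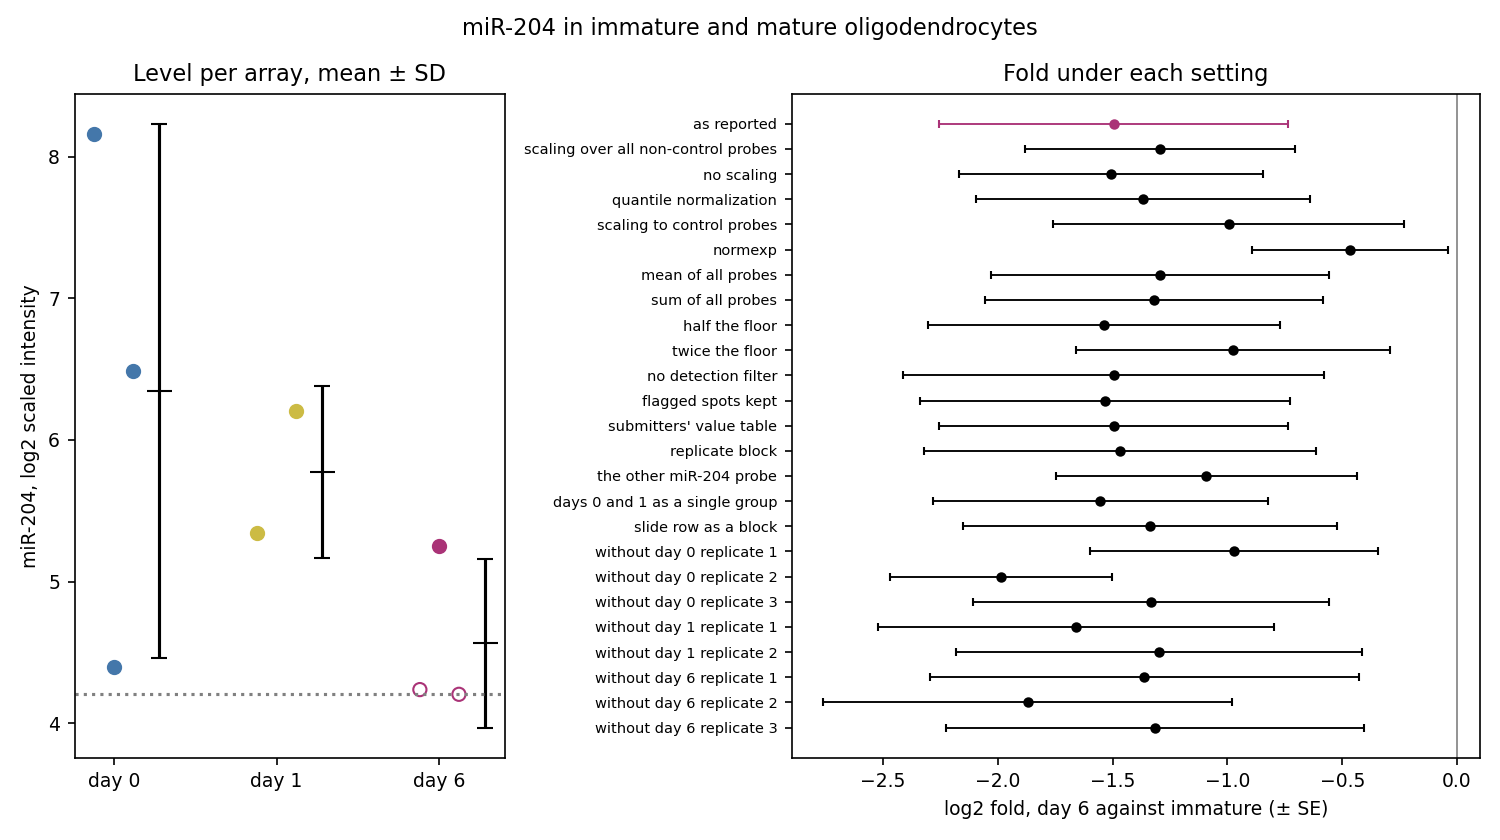
Left, log2 scaled intensity of miR-204 (vertical axis) on each array by day, with mean ± SD beside the points, where open circles are arrays without detection and the dotted line is the floor at 4.20. Right, log2 fold of mature against immature cells (horizontal axis, bars ± SE) as reported, at -1.50, and under each other setting of the fit, all below 0.

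miR-211 was seen on a single array. On day 0 replicate 1 its probes A_54_P1466, A_54_P1467, A_54_P1468 and A_54_P1469 had mean intensities of 205, 522, 410 and 349, and 17 of 20 spots were well above background. On the other 7 arrays 0 of 140 spots were well above background, and the probe means ran from -5.84 to 8.64. The log2 scaled level on day 0 replicate 1 was 9.15, and all 7 other arrays lay at the floor. The software's summary signal was 493 there and 0.328 to 7.25 elsewhere, with its detection flag set on that array alone. Because 3 arrays with detection were required, miR-211 was not tested and no fold is given.

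Elsewhere miR-211 was at most faint. On the 5 further arrays where miR-204 was detected, including day 0 replicate 3 with the second highest miR-204 level, 0 of 100 miR-211 spots were well above background. Day 0 replicate 3 did carry the highest miR-211 summary signal of those 5, at 7.25 ± 2.51 (the software's error), and 3 of its 4 probe means (5.43, 7.39 and 8.64) came from spots that were all above 0. The median over all non-control spots of that array was itself 3.28. Spots were also all above 0 for A_54_P1468 and A_54_P1469 on day 1 replicate 2 (means 6.17 and 4.95) and day 6 replicate 1 (0.98 and 4.64). On day 0 replicate 1 there were 5 miRNAs detected on no other array, the others being miR-1894-5p, miR-197, let-7d* and miR-99b*. Such miRNAs numbered 21 on day 0 replicate 3, 8 on day 1 replicate 1 and at most 1 on each remaining array. The part of the background of day 0 replicate 1 in the miR-211 signal was not tested.

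**Figure D3:**
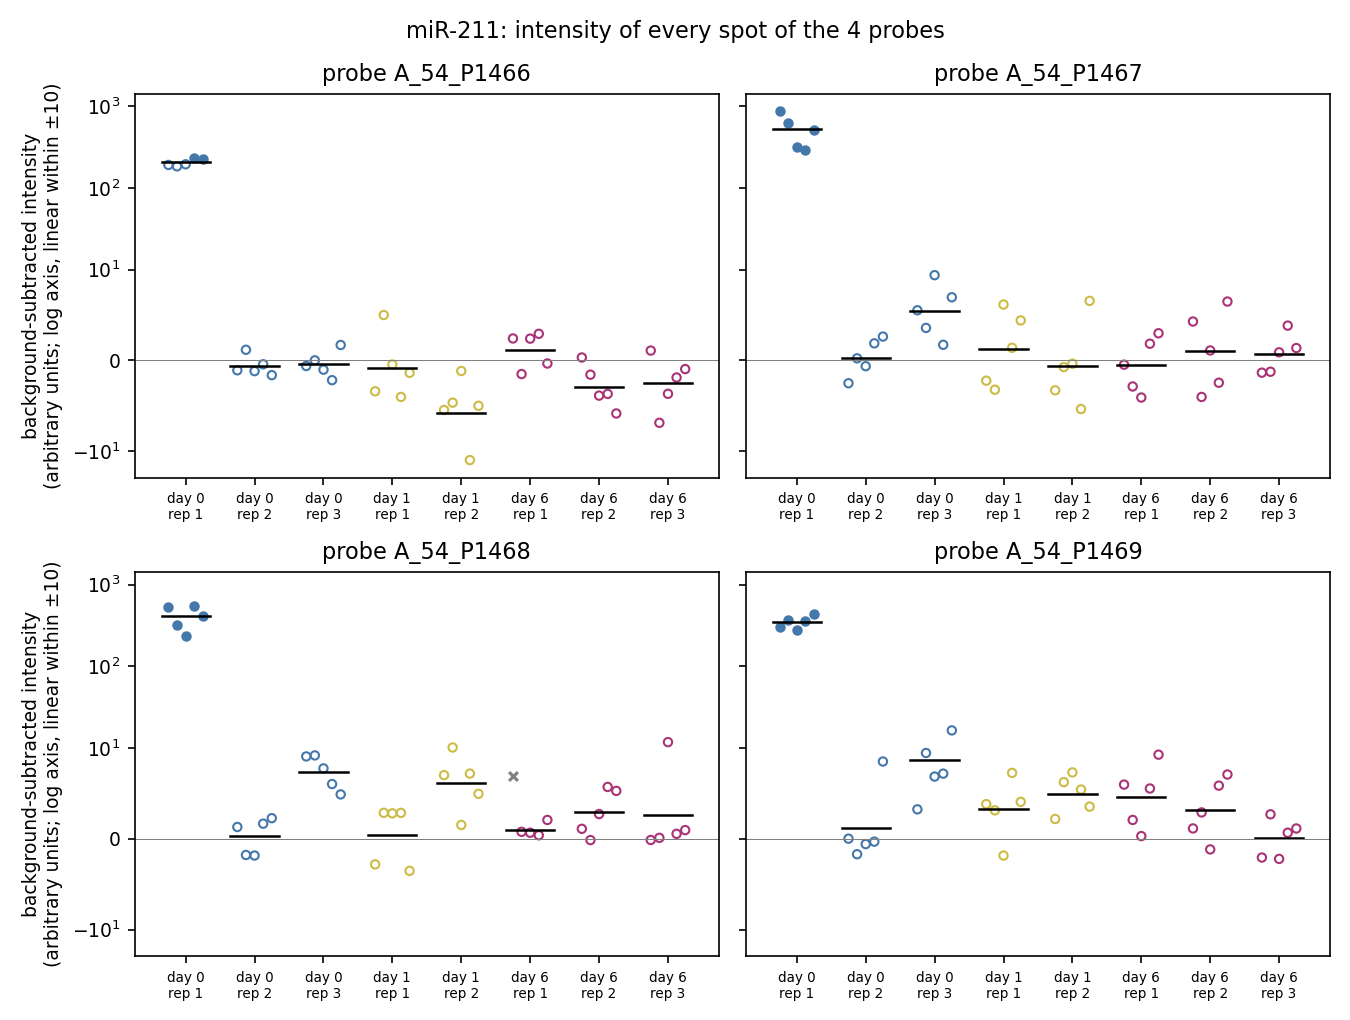
Background-subtracted intensity (vertical axis, arbitrary units, log scale outside ±10) of every miR-211 spot on the 8 arrays, in one panel per probe, with symbols as for miR-204. Probe means on day 0 replicate 1 are between 205 and 522, and on the other arrays they are between -5.84 and 8.64, with no spot well above background.

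Arrays with a high miR-204 signal gave low signals for miR-338-3p, miR-219 and miR-138. None of these was detected on day 0 replicate 1, the array highest in miR-204. miR-338-3p had log2 levels of 7.04, 11.53 and 8.64 on day 0, 11.16 and 7.66 on the 2 day 1 arrays, and 11.22, 9.54 and 10.92 on day 6. Its value on day 0 replicate 1 was not well above background and lay under 7.65, the lowest level detected on that array. The 3 arrays highest in miR-204 (day 0 replicates 1 and 3 and day 1 replicate 2) were the 3 lowest in miR-338-3p, and arrays of day 0 stood at both ends.

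Over the 8 arrays miR-204 and miR-338-3p had a Pearson correlation of -0.91 and a Spearman correlation of -0.76. Day 0 replicates 1 and 3 lay farthest from the median of miR-204, and without both the correlation was -0.84 over 6 arrays. Without day 0 replicate 1 alone it was -0.86, and for deviations from the day means it was -0.91. Each slide row held 4 arrays, too few for a correlation. In the first row miR-338-3p was lower on the 2 arrays highest in miR-204 than on the other 2, and so it was in the second. The points share scaling, slide and detection limits, and because the members were chosen for this relation it carries no test. Among the 198 other tested miRNAs, whose median correlation with miR-204 was -0.21, miR-338-3p was number 4 from the most negative.

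miR-219 and miR-138, which the choice of the pair did not use but which were measured on the same arrays, ran the same way as miR-338-3p. miR-219 had log2 levels of 4.20, 8.14 and 5.10 on day 0, 6.72 and 4.20 on the 2 day 1 arrays, and 6.36, 5.79 and 7.17 on day 6. miR-138 had 4.20, 7.64 and 5.74 on day 0, 6.83 and 4.27 on the 2 day 1 arrays, and 6.84, 5.95 and 7.05 on day 6. Both were undetected on day 0 replicate 1 and day 1 replicate 2, which were among the 3 arrays highest in miR-204. On day 0 replicate 1, however, nothing below 7.65 was detected. miR-138 reached that level on no array and miR-219 only on day 0 replicate 2, so their absence there says little about their level. Their Pearson correlations with miR-204 were -0.84 and -0.87, -0.81 and -0.87 without the 2 farthest arrays, and -0.82 and -0.80 without day 0 replicate 1.

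Of the remaining differentiation miRNAs, miR-23a and miR-23b depended most on whether day 0 replicate 1 was included. miR-32, undetected on the same 2 arrays, had a correlation of -0.70 with that array and -0.56 without it. miR-338-5p, the opposite arm of the miR-338 precursor, had -0.60 and -0.61, with detection on only 3 arrays. miR-23a and miR-23b, which repress lamin B1 and were detected on all arrays, had 0.53 and -0.01 with it, but 0.03 and -0.79 without it. The summed scaled intensity of the 7 miRNAs was 3256, 5260 and 1728 on day 0, 4377 and 2350 on the 2 day 1 arrays, and 4895, 3111 and 3950 on day 6. The array highest in miR-204, day 0 replicate 1, was not the lowest in this sum. Only miR-23a and miR-23b, at log2 levels of 10.79 and 10.33, were detected there, so its sum says little about the other members. In mature against immature cells all 7 members of this list had folds above 0. Their median was 0.19, beside 0.04 over all 199 miRNAs. In limma 0 passed the test, beside 2.01% over all miRNAs. The 7 include miR-338-3p, used in the choice, and miR-23a, miR-338-5p and miR-23b had folds of only 0.07, 0.09 and 0.14. miR-219 and miR-32 lay at the floor on day 0 replicate 1 and day 1 replicate 2, both immature, so their folds depend on it.

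**Figure D4:**
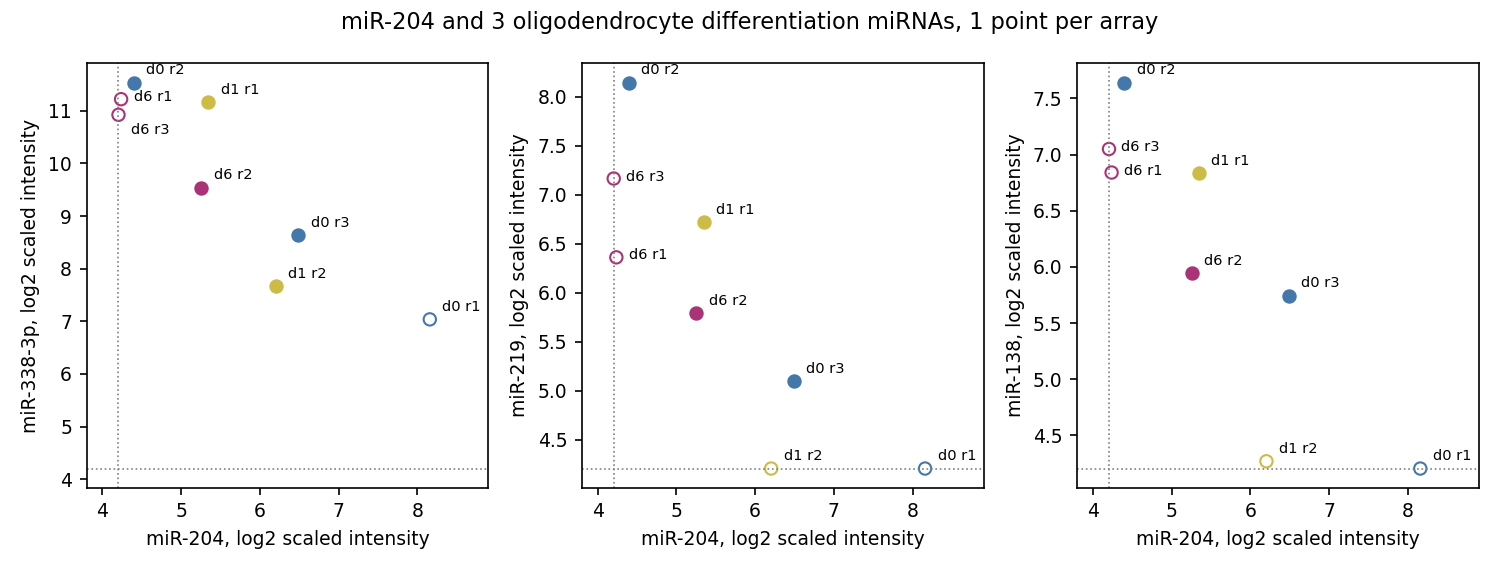
Log2 scaled intensity of miR-338-3p, miR-219 and miR-138 (vertical axes) against miR-204 (horizontal axis), with 1 point per array labelled by day (d) and replicate (r) and dotted lines at the floor of 4.20. Open circles are arrays on which either miRNA was not detected, and day 0 arrays appear both at the upper left and at the lower right.

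Among the 53 mouse miRNAs detected on all 8 arrays, the patterns most like miR-204 were those of miR-7a (Pearson r = 0.89), miR-342-3p (0.86), miR-135a (0.78), miR-181d (0.62) and miR-15b (0.56). The most opposite were miR-15a (-0.83), let-7i (-0.80), miR-107 (-0.57), miR-103 (-0.57) and miR-29b (-0.54), while the median over the 53 was 0.04. Nothing below 7.65 was detected on day 0 replicate 1, so a dim miRNA entered the 53 only if high on that array, as miR-204 was. miR-7a, miR-342-3p, miR-135a and miR-181d, at 7.91, 8.21, 7.88 and 8.09 there, were lower on every other array. Their likeness to miR-204 is therefore partly set by this filter. miR-7a was 7.91, 6.30 and 6.96 on day 0, 6.19 and 6.62 on the 2 day 1 arrays, and 5.99, 5.97 and 6.37 on day 6, so it too was highest on day 0 replicates 1 and 3. Without day 0 replicate 1, the 5 opposite miRNAs kept correlations of -0.63 to -0.79, and miR-7a, miR-342-3p, miR-135a and miR-15b kept 0.60 to 0.70, whereas miR-181d had -0.18. Leaving out that array also widened the choice to 132 miRNAs detected on all 7 remaining arrays, with scaling recomputed, and the 5 most alike were miR-15b (0.82), miR-127 (0.81), miR-378 (0.80), miR-379 (0.80) and miR-674* (0.79). The 5 most opposite were then miR-185 (-0.91), miR-338-3p (-0.88), miR-151-5p (-0.87), miR-27b (-0.85) and miR-140 (-0.81). Of the earlier sets, 1 of 5 like miRNAs and 0 of 5 opposite ones were among these, with both the arrays and the candidates changed.

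**Figure D5:**
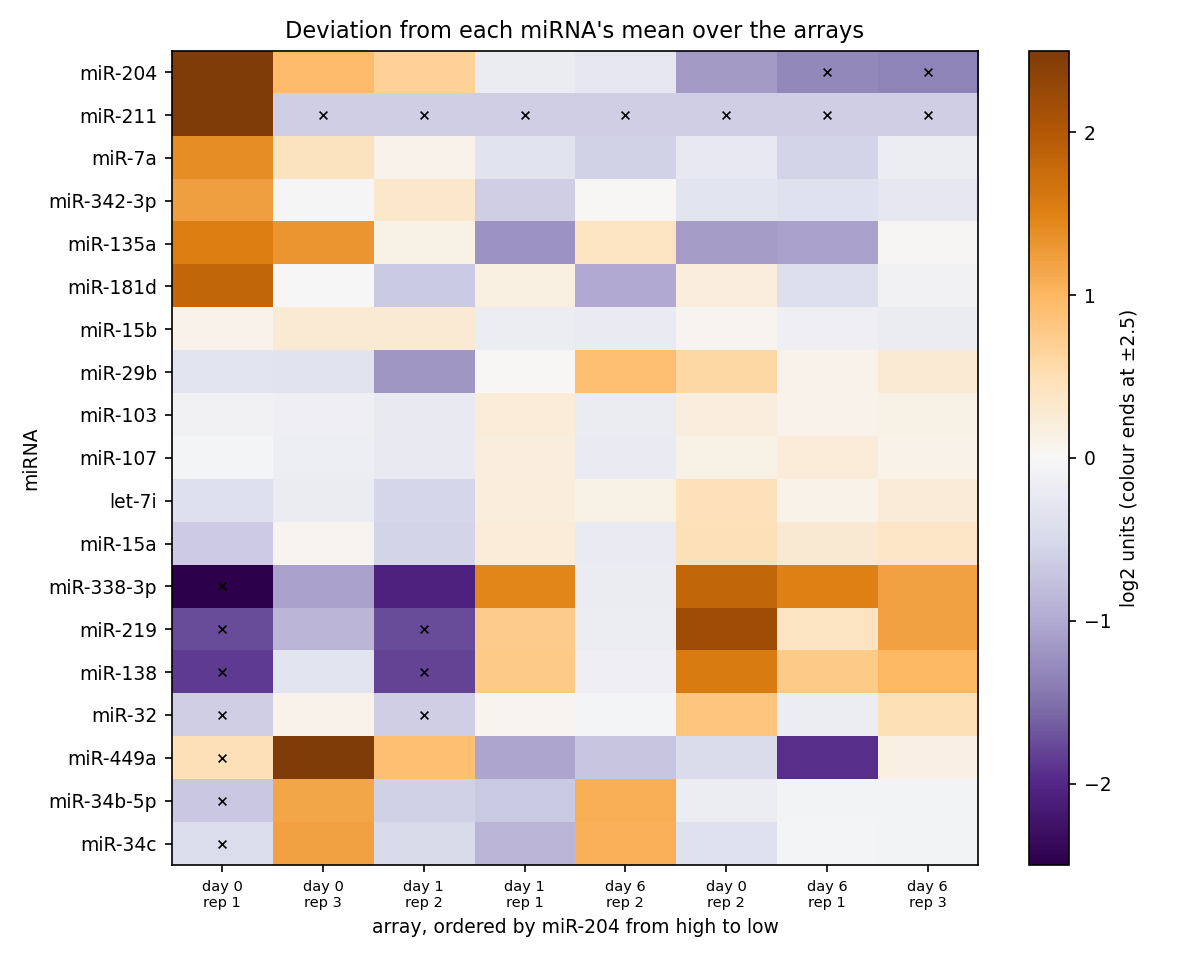
Deviation of each miRNA's log2 level from its mean over the 8 arrays (colour, log2 units, ends at ±2.5), with arrays on the horizontal axis ordered from the highest to the lowest miR-204 and crosses where a miRNA was not detected. miR-338-3p, miR-219 and miR-138 are mostly purple on the left and orange on the right, opposite to miR-204, and miR-211 departs from the floor on day 0 replicate 1 alone.

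Of the lists drawn up for other tissues known for this pair, that of retinal pigment epithelium and melanocytes had no further member detected. That of choroid plexus and ciliated epithelium had some. How specific the members are to these cells was not tested, so the lists do not tell such sources apart. Over all mouse miRNAs, 199 of 611 were detected on 3 arrays or more, and 61 to 218 on a given array. In retinal pigment epithelium and melanocytes, the list besides miR-204 and miR-211 held miR-184, miR-182, miR-183 and miR-96, and 0 of 4 was detected on any array. Day 0 replicate 1, the only array with miR-211, could show nothing below 7.65, so members of this list at a lower level would be missed there. The summed scaled intensity of the 4 was 145 on that array. It was 73.7, the sum with all members at the floor, on every other array. Of 7 miRNAs of other epithelia, the miR-200 family, miR-203 and miR-205, 0 was detected on any array. Their sum was 156 on day 0 replicate 1 and 129, the sum at the floor, on every other array. The 6 further miRNAs of choroid plexus and ciliated epithelium were the miR-34 and miR-449 family that multiciliated cells use. Of these 6, 5 were detected somewhere, miR-449c and miR-34b-3p on 1 array each, and miR-449b on 0 arrays. They numbered 0 on day 0 replicate 1, 5 on day 0 replicate 3, and 3 on each other array. Their summed scaled intensity was 420, 225 and 947 on day 0, 172 and 326 on the 2 day 1 arrays, and 194, 364 and 278 on day 6, where 111 is the sum with all members at the floor.

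Within that family, miR-449a had log2 levels of 7.14, 6.19 and 9.28 on day 0, 5.62 and 7.57 on the 2 day 1 arrays, and 4.70, 5.93 and 6.80 on day 6, the first of them not well above background. It was thus highest on day 0 replicate 3 and day 1 replicate 2, arrays that were also high in miR-204, and its correlation with miR-204 was 0.57 (0.74 without day 0 replicate 1). miR-34b-5p and miR-34c had correlations of -0.13 and 0.01, and 0.28 and 0.32 without day 0 replicate 1, where both were undetected. In mature against immature cells miR-449a had a log2 fold of -1.26 ± 0.80 (SE; limma adjusted p = 0.570), miR-34b-5p 0.59 ± 0.46 (limma adjusted p = 0.686) and miR-34c 0.59 ± 0.46 (limma adjusted p = 0.677). Of the 8 miRNAs of the choroid plexus list, both members of the pair included, 4 were tested and 0 passed, beside 2.01% over all miRNAs. Their median log2 fold was -0.34 beside 0.04 over all, with miR-204 itself (-1.50) among the 4. Of the other tested members miR-449a lay below 0, and miR-34b-5p and miR-34c lay above 0. The part of such cells in the miR-204 signal was not tested.

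Markers of other cell types that a shaken-off culture could hold gave no call between mature and immature cells. In limma 0 of 4 astrocyte, 0 of 6 neuronal, 0 of 5 microglial and leukocyte and 0 of 3 fibroblast and mural miRNAs tested were called, beside the 2.01% over all miRNAs. The median log2 folds of these lists, in that order, were 0.30, -0.03, 0.12 and 0.80, beside 0.04 over all miRNAs. The 2 with the smallest p in each were miR-26a (log2 fold -0.42 ± 0.22 SE) and miR-29b (0.72 ± 0.38) for astrocytes, miR-132 (-0.34 ± 0.37) and miR-212 (0.21 ± 0.25) for neurons, miR-223 (-0.47 ± 0.35) and miR-146a (0.59 ± 0.38) for microglia, and miR-143 (1.05 ± 0.42) and miR-199a-3p (0.80 ± 0.49) for fibroblasts. All 3 tested fibroblast and mural miRNAs had folds above 0. miR-143 lay at the floor on every immature array and on day 6 replicate 3. It was nevertheless detected on day 0 replicate 3 and day 1 replicate 1, so the floor there does not mean absence. All 4 astrocyte miRNAs were detected on every array with a summed level of 1827 to 2773. On day 0 replicate 1 the neuronal and fibroblast lists had 0 members detected and the microglial list 2 of 6, so those lists are blind to much of what that array may hold.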

How the data were processed

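Per the labels' protocols, Trizol was used to obtain total RNA, which was marked with Cy3 by Agilent's miRNA protocol and hybridised to 1-colour Agilent arrays, 1 sample per array. Agilent Feature Extraction 9.5 wrote the deposited spot files, per the file headers. Used here were the deposited intensities after background subtraction, on a linear scale, not scaled between arrays, per the file headers; they can fall below 0. The submitters' value table held the same deposited intensities (largest difference 0), so its scale and direction are known and it is not centred. Column medians over non-control spots were -6.93, 2.90 and 3.28 (day 0), 3.13 and 0.768 (day 1), and 2.83, 1.74 and 1.78 (day 6). The software's summary signal and its detection flag were also read from the deposited files as intensities.

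Outlier spots were left out, spots of a probe averaged, and a probe counted as detected when a share of at least 0.5 of its spots was well above background. No spot was saturated. Arrays were brought to a common 75th percentile, taken over 91 probes detected everywhere. Values under the 5th percentile of detected signals (18.4, log2 4.20) were raised to that floor, and log2 was taken. A miRNA's value is that of its brightest probe. The test took the 199 of 611 mouse miRNAs that were detected on 3 arrays or more and left out 412, miR-211 among them. Values at the floor have no order, and folds against them depend on it.

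R 4.3 with limma 3.58 (lmFit, eBayes, two-sided) fitted 1 mean per day over all 8 arrays, with p-values adjusted by Benjamini-Hochberg over 199 miRNAs and a call at 0.05. It was tested on simulated data. Immature is the mean of the day 0 and day 1 means. Figures used Python 3.11 and matplotlib 3.10. The small number of arrays limits the precision. Named besides the pair and miR-338-3p are the 5 most and least correlated miRNAs detected on all arrays, the tested members of the differentiation and epithelium lists, and of other lists the 2 with the smallest p; miR-1894-5p, miR-197, let-7d*, miR-99b* and the sets of 7 arrays were named after their values were seen. The members and lists were chosen with earlier results of these data known. Replicate numbers were not used as pairs in the main fit. Alternatives varied the floor, scaling, detection filter, background method, probe summary, value source, outlier spots and grouping of days, added a replicate block, fitted only the days compared, or left out each array; the slide row as a block and leaving out both farthest arrays were added after the data were seen. miRNA sequences and positions come from RefSeq (GRCm38.p6).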

Additional observations from a re-analysis of the deposited data

Results flagged for a closer look

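miR-211 on day 0 replicate 1 is a signal outside every comparison made here, since a miRNA detected on 1 array could not be tested. Its log2 scaled level there was 9.15, from a brightest probe of 522 intensity units with 17 of 20 spots of its 4 probes well above background, against 0 of 140 spots on the other 7 arrays. Whether it belongs to the cells of that culture or to the array was not tested.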

How the results depend on the processing

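The miR-204 fold stayed below 0 and without a call under all settings run for day 6 against immature (25 settings, -1.99 to -0.47), day 0 (23, -2.76 to -0.66) and day 1 (23, -1.59 to -0.27); leaving out each array gave -1.99 to -0.97, -2.76 to -0.78 and -1.59 to -0.80. Day 1 against day 0 was below 0 in 21 of 23 and turned to 0.061 with scaling over all probes, and leaving out each array gave -1.55 to 0.39. In each comparison the value table and dropping the detection filter could not change the fold. All settings reuse the same arrays, so these counts are not separate observations. Scaling moved the median fold of all 199 miRNAs in mature against immature cells from 0.04 to -0.28 without scaling and 0.55 with control probes, and miR-204 minus that median was -1.54, -1.23 and -1.55.

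Counts of calls in mature against immature cells (4) became 0 with the mean or sum of probes, all-probe scaling, normexp, the replicate block, the slide row, detection on all 8 arrays or no filter, 2 without scaling and 17 with control probes. Leaving out each array gave 0 to 8. Where limma called 0, an unadjusted p under 0.05 was reached by 5 to 24 miRNAs. Against day 0 (8) counts became 1 with scaling over all probes, the mean or sum of probes, detection on all 8 arrays or the replicate block, 2 without scaling, with normexp or with the slide row, 3 with only those days' arrays, 4 with a doubled floor or no filter and 16 with control probes, and 1 to 10 leaving out each array. Against day 1 (0) they became 3 with control probes or a doubled floor and 1 with detection on all 8 arrays, and day 1 against day 0 (3) became 1 in that last setting; leaving out each array gave 0 to 0 and 2 to 3. The causes were not tested.

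With the replicate block the miR-204 folds were -1.47, -1.78, -1.15 and -0.63 (day 6 against immature, day 0 and day 1, and day 1 against day 0). Same-numbered arrays had correlations of deviations from -0.71 to 0.32. With 2 or 3 arrays per day, deviations from the day means are tied to each other and cannot show whether the numbers pair samples. With the slide row as a block they were -1.34, -1.57, -1.10 and -0.47. miR-211 was detected on 1 array whichever spot rule was used. The correlation of miR-204 with miR-338-3p was -0.81 with scaling over all probes, -0.76 without scaling, -0.84 without both farthest arrays and -0.94 to -0.88 leaving out each array with scaling recomputed. With detection on all 8 arrays miR-204 was not tested. Signal over background limits day 0 replicate 1 most, where nothing below 7.65 (log2) was detected.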
